A study of Saccharomyces cerevisiae with 6 samples.

Results

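The outermost genes of the 16 budding yeast chromosomes are described here, in cells that lack the nucleosome remodeller Fun30 and in wild-type cells. For each of the 32 chromosome arms, the 6 measured genes with the highest locus-tag number were taken, since that number counts genes outward from the centromere. This gave 192 genes, and 27 of them were left out because their names place them in large families or other fixed groups (COS, PAU, DAN, TIR, HXT, PHO, IMD, ARN, FIT, VPS, MRP, RPL, RPS and SIR1). The remaining 165 genes are the members, out of 5449 measured genes. In the RefSeq gene table of assembly R64, a member was the 1st to the 13th protein-coding gene from its end, with a median place of 6. Expression had 2 arrays of a FUN30 knockout in the haploid strain BY4741 and 2 arrays of wild-type BY4741, all from log-phase cells in synthetic complete medium. The labels name 1 strain for each genotype and no separate cultures, so the p-values measure the spread between these arrays, and the deletion is confounded with anything else in which the strains differ. A second experiment transformed a pool of homozygous diploid deletion strains with a URA3 cassette that replaces ISU1 (1 array) or SOD2 (1 array), each against the circular plasmid pRS416, and read the strains' barcodes on a 2-colour array. Here the strains that lack an outermost gene are the ones described.

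Genes next to yeast telomeres lie in a chromatin domain that can be silenced by the Sir2, Sir3 and Sir4 proteins, which are recruited by Rap1 at the telomeric repeats and spread inward to differing distances. Fun30 is an ATP-dependent remodeller of the Snf2 family, known in yeast for promoting silencing near telomeres and at the silent mating cassettes, and for helping the resection of DNA ends. The genes that lie there often serve occasional needs, such as growth on an unusual sugar or resistance to a toxic metal, and many belong to repeated families whose copies hybridise with each other's probes.

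The deletion itself was visible on the arrays. FUN30 had log2 signals of 3.37 and 3.55 on the deletion arrays, below the background level of 5.24, against 9.63 and 9.40 on the wild-type arrays, a fall of at least 4.27 (log2; limma adjusted p = 5.46e-05). This level is the 95th percentile of signals from probe sets whose annotated gene is not in the S. cerevisiae table. Median signals of all tested probe sets were 10.59 to 10.61 on the 4 arrays, and those of the outermost genes were 8.44 to 8.56. Members had a median signal of 8.47 over the 4 arrays, against 10.60 for all tested probe sets, and 20 of the 165 lay below the background level. Probe sets whose names end in _s_at or _x_at can hybridise with related genes, and 19.4% of the members were read on such a set, against 2.33% of all tested probe sets.

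A larger share of the outermost genes than of the whole genome was lower in the deletion, and most of the falls were modest in size. Of the 165 members, 16 fell (9.70%) and 2 rose (1.21%) at an adjusted p under 0.05 with limma. Over all 5498 tested probe sets the same fit gave 1.29% lower and 1.36% higher in the deletion. Members made up 3.00% of the tested probe sets, 22.5% of the 71 falls and 2.67% of the 75 rises. With a run of neighbouring chromosome IV genes left out of the fit, 7.27% of members fell and 1.21% rose. Over all probe sets of that fit, 0.826% fell and 0.422% rose. The largest falls were those of YIR042C, an uncharacterised ORF, and of ARR2 and ARR3, the arsenate reductase and the arsenite exporter. The larger rise was that of YNR071C, a putative aldose 1-epimerase.

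The outermost genes did not fall as a whole with these 16. In either direction, 67 members (40.6%) had an unadjusted p under 0.05 (limma), against 22.2% of all tested probe sets. The members' median difference, deletion minus wild type, was −0.03 (log2), against −0.003 for all tested probe sets. The middle 50% of members ranged from −0.23 to 0.15, wider than the −0.11 to 0.10 of all tested probe sets. Set array against array, the members' median ran from −0.04 to 0.01, so its sign was not stable. A negative difference was seen in 92 members (55.8%), against 50.7% of all tested probe sets. Both deletion arrays lay below both wild-type arrays in 55 members (33.3%), and this was so in 30.0% of all tested probe sets. Both lay above them in 53 of the 165 members, and in 1565 of the 5498 tested probe sets. In the lower tail, 20 members (12.1%) had a difference below −0.5, against 4.04% of all tested probe sets. Within the range of signal described next, 14 of 83 members (16.9%) had one, against 7.51% of the probe sets of other genes. A difference above 0.5 was found for 2 members (1.21%), against 1.80% of all tested probe sets.

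Because the outermost genes were dim, the count was also set beside that of other genes in the same range of signal. Among the 83 members in the middle 50% of member signals, from 6.88 to 10.2 (log2), 10 fell (12.05%). Of the 1905 probe sets of other genes in that range, 2.20% fell. These were brighter within the range, with a median signal of 9.36 against 8.47 for the 83 members, so dimness was matched only in part. Members read on probe sets without a mark of cross-hybridisation numbered 133, and 9 of them fell (6.77%), against 1.15% of all tested probe sets without the mark. The other 32 members included 7 falls (21.9%). Over all 128 probe sets with the mark 9 fell (7.03%), and 7 of these 9 falls were those of members. For members read on such sets, the signal of a relative elsewhere cannot be told apart from the member's own.

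**Figure D1:**
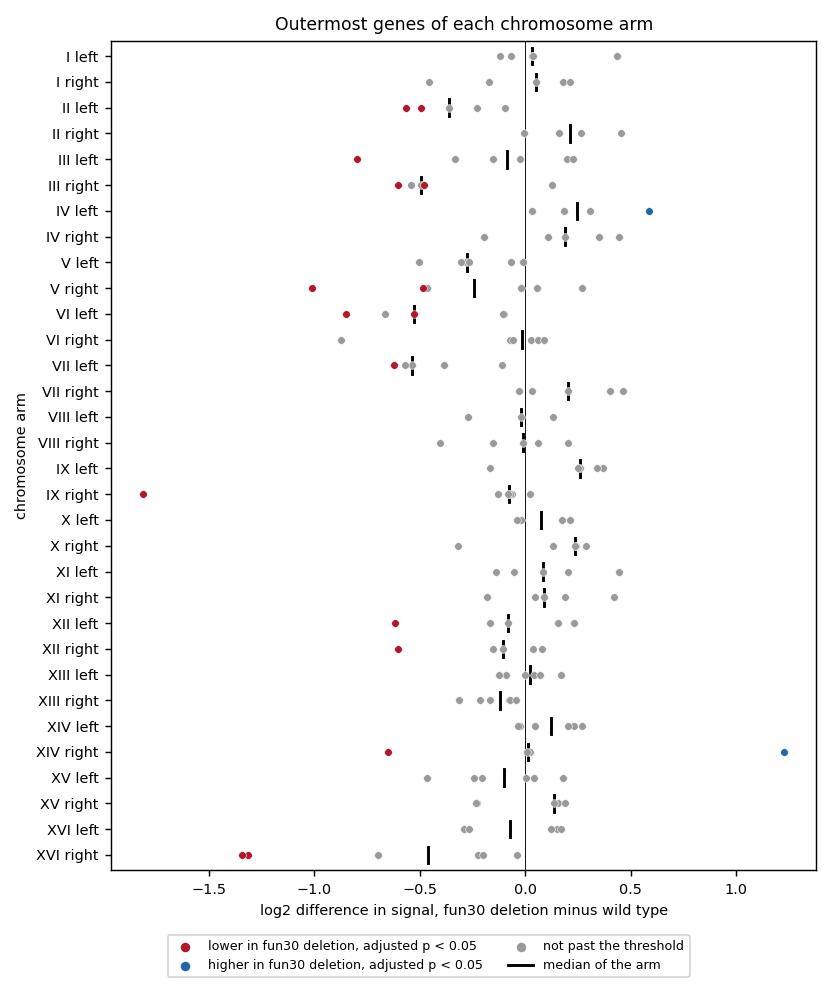
Log2 difference in signal (fun30 deletion minus wild type, horizontal axis) of each of the 165 outermost genes, by chromosome arm, with a black bar at the median of each arm. The 16 genes that fell are red and lie on 11 arms, the 2 that rose are blue, and 20 arms hold no call.

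The arsenic resistance genes at the right end of chromosome XVI gave a large fall that 2 neighbours shared. ARR3, the outermost measured gene of that arm and the plasma membrane exporter of arsenite, had signals of 5.61 and 5.53 on the deletion arrays, against 6.85 and 6.93 on the wild-type arrays. ARR2, which reduces arsenate and is transcribed divergently from ARR3, had 6.47 and 6.46 in the deletion, against 7.70 and 7.92 in the wild type. In both genes the groups were far apart, and the arrays of a genotype were at most 0.21 apart. The falls were 1.32 ± 0.07 for ARR3 (log2, SE; 2.49-fold lower, adjusted p = 0.0047, limma) and 1.34 ± 0.09 for ARR2 (2.54-fold lower, adjusted p = 0.0068). ARR1, the transcriptional activator of these genes and the next gene inward, had 11.14 and 11.18 in the deletion, against 11.36 and 11.40 in the wild type. Its groups did not overlap either, but the difference of −0.22 had an adjusted p of 0.14.

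Further inward on this arm the differences stayed negative without passing. SGE1, a multidrug exporter, differed by −0.20 (adjusted p = 0.217), and YPR196W, a putative maltose-type activator, by −0.04 (adjusted p = 0.843). OPT2, an oligopeptide transporter, had 7.78 and 8.22 in the deletion, against 8.79 and 8.61 in the wild type, a difference of −0.70 with an adjusted p of 0.105. Its groups did not overlap, and the deletion arrays were 0.45 apart. The arm's median was −0.46 over its 6 members, all of them negative.

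YIR042C, at the right end of chromosome IX, had the largest fall of the outermost genes. It is the last protein-coding gene of its arm and has no assigned function. Its signals were 6.67 and 6.86 on the deletion arrays, against 8.51 and 8.63 on the wild-type arrays. The groups were separated by 1.65 log2 units, and the fall was 1.81 ± 0.09 (SE; 3.51-fold lower, adjusted p = 0.0047, limma). None of the other 5 members of that arm passed the threshold, and they differed by −0.13 to 0.02.

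YER187W, an uncharacterised ORF near the right end of chromosome V, had 6.83 and 6.94 in the deletion, against 7.73 and 8.06 in the wild type. The wild-type arrays were 0.33 apart and did not reach the deletion values, for a fall of 1.01 ± 0.12 (SE; 2.01-fold lower, adjusted p = 0.0247, limma). On the same arm PUG1, a plasma membrane transporter of protoporphyrin and haem, had 7.38 and 7.37 in the deletion, against 7.86 and 7.86 in the wild type. Its fall of 0.49 ± 0.06 passed (adjusted p = 0.0267), with nearly equal arrays in each genotype. YER186C lies between these genes and did not pass, and the arm's median was −0.24.

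**Figure D2:**
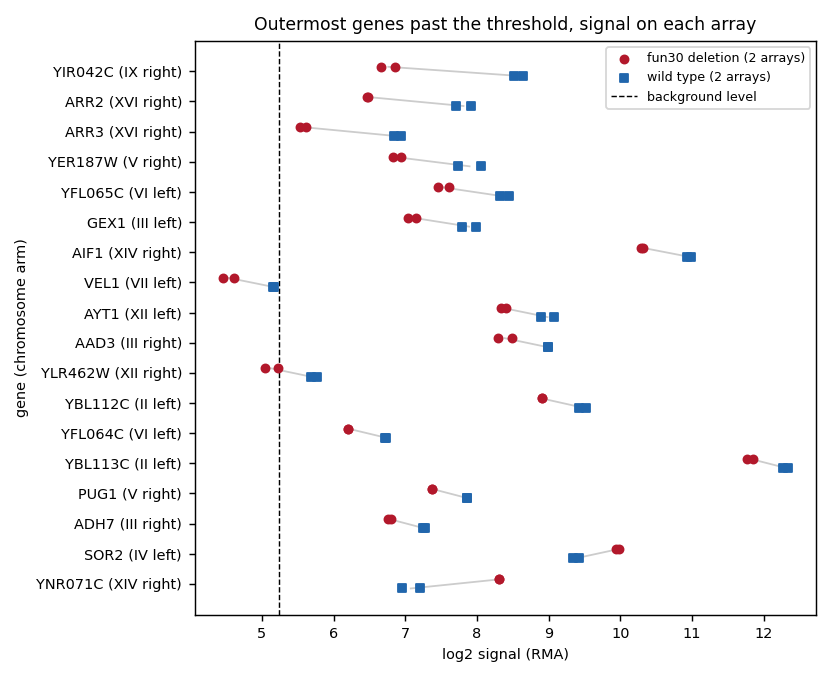
Log2 signal (horizontal axis) on each array of the 18 outermost genes past the threshold, with the fun30 deletion arrays as red circles above the wild-type arrays as blue squares, and the background level dashed. Both deletion arrays lie below both wild-type arrays in the upper 16 genes and above them in SOR2 and YNR071C, and VEL1 lies below the background level on all 4 arrays.

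Several falls came from ends that hold repeated sequence, and these genes were read on probe sets marked for cross-hybridisation. YBL113C, an ORF of the Y' element that resembles a helicase, had 11.77 and 11.85 in the deletion, against 12.27 and 12.34 in the wild type. Its neighbour YBL112C had 8.90 and 8.91 in the deletion, against 9.43 and 9.52 in the wild type. Neither gene's groups overlapped, and the falls were 0.50 ± 0.07 (SE, adjusted p = 0.0356, limma) and 0.57 ± 0.07 (adjusted p = 0.023). The third gene of that end, YBL111C, differed by −0.23 (adjusted p = 0.265), and MIX23 and SRO77, the next members, by −0.36 (adjusted p = 0.085) and −0.10 (adjusted p = 0.477). All 5 members of the left arm of chromosome II were thus negative, with a median of −0.36, and in all 5 both deletion arrays lay below both wild-type arrays. Without cross-hybridising probe sets, MIX23 and SRO77 remained and the arm's median was −0.23.

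On the left arm of chromosome VI the uncharacterised neighbours YFL065C and YFL064C fell together, both read on cross-hybridising probe sets. YFL065C had 7.45 and 7.61 in the deletion, against 8.44 and 8.32 in the wild type, and YFL064C had 6.20 and 6.20, against 6.72 and 6.73. The falls were 0.85 ± 0.09 (SE, adjusted p = 0.0161, limma) and 0.53 ± 0.06 (adjusted p = 0.0222), and in neither gene did the groups come close. The outermost ORF of the arm, YFL068W, had 6.41 and 6.74 in the deletion, against 7.21 and 7.29 in the wild type, and its difference of −0.67 did not pass (adjusted p = 0.0693). YFL067W, between them, differed by −0.10, as did DDI3, a cyanamide hydratase gene also read on a cross-hybridising probe set. Without such sets YFL068W and YFL067W remained on this arm, and neither passed.

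Single falls on cross-hybridising probe sets were found at 3 more ends. GEX1, the outermost gene of the left arm of chromosome III and a glutathione exchanger with a near-identical copy elsewhere, had 7.04 and 7.15 in the deletion, against 7.80 and 7.98 in the wild type. Its fall was 0.80 ± 0.09 (SE; 1.74-fold lower, adjusted p = 0.0214, limma). AAD3, a putative aryl-alcohol dehydrogenase on the right arm of that chromosome, had 8.29 and 8.48 in the deletion, against 8.99 and 8.99 in the wild type. That fall was 0.60 ± 0.08 (adjusted p = 0.0342), and 2 further probe sets of AAD3 differed by −0.52 (adjusted p = 0.0767) and −0.31 (adjusted p = 0.0876). YLR462W, an ORF at the right end of chromosome XII, had 5.22 and 5.04 in the deletion, below the background level, against 5.77 and 5.69 in the wild type. Its fall was at least 0.49 (log2; adjusted p = 0.0377).

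The right arm of chromosome III had negative differences in 4 of its 5 members and a median of −0.49. Beside AAD3, ADH7 fell there, an alcohol dehydrogenase that prefers NADPH. It had 6.80 and 6.75 in the deletion, against 7.25 and 7.27 in the wild type, a fall of 0.48 ± 0.06 (SE, adjusted p = 0.03, limma). RDS1, a zinc cluster transcription factor, lies between AAD3 and ADH7 and had 6.97 and 7.23 in the deletion, against 7.74 and 7.55 in the wild type. Its difference of −0.54 was as large as those of its neighbours, but the arrays of a genotype were further apart and the adjusted p was 0.0911. The outermost member, YCR108C, differed by −0.49 (adjusted p = 0.0606), with deletion signals around the background level. YCR102C, the innermost, differed by 0.13 (adjusted p = 0.356).

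On the left arm of chromosome VII all 5 members were negative, with both deletion arrays below both wild-type arrays in each and a median of −0.54. That median is the value of YGL262W, which lay below the background level on all 4 arrays. Without dim probe sets 3 members were left and the median was −0.38. VEL1, whose function is not known, passed the threshold there, but its signals of 4.46 and 4.61 in the deletion, against 5.15 and 5.17 in the wild type, were all below the background level, so no fold change is given. YPS5, which resembles GPI-anchored aspartic proteases, had 6.78 and 7.13 in the deletion, against 7.34 and 7.71 in the wild type (−0.57, adjusted p = 0.15). The groups of YPS5 were 0.21 apart, less than the 0.35 between its deletion arrays and the 0.37 between its wild-type arrays. YGL258W-A differed by −0.38 (adjusted p = 0.194), and MNT2, a mannosyltransferase, by −0.11 (adjusted p = 0.407).

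The remaining falls were those of AIF1 and AYT1. AIF1, the yeast relative of a mitochondrial cell death effector of animals, had 10.29 and 10.32 in the deletion, against 10.98 and 10.93 in the wild type. The arrays of a genotype were at most 0.04 apart, and the fall was 0.65 ± 0.06 (SE; 1.57-fold lower, adjusted p = 0.0141, limma). AYT1, an acetyltransferase on the left arm of chromosome XII, had 8.33 and 8.40 in the deletion, against 9.07 and 8.90 in the wild type, a fall of 0.62 ± 0.09 (SE, adjusted p = 0.034). AIF1 lies on the right arm of chromosome XIV, which also held the largest rise. There YNR071C had 8.30 and 8.31 in the deletion, against 6.95 and 7.21 in the wild type, a rise of 1.23 ± 0.10 (SE; 2.34-fold higher, adjusted p = 0.0077, limma). The other 2 members of that arm, YNR075C-A and PDR18, did not pass.

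The right arm of chromosome VI held the largest difference that did not pass. IRC7, a beta-lyase that releases sulphur compounds from cysteine conjugates, had 8.97 and 8.94 in the deletion, against 10.12 and 9.53 in the wild type. The difference of −0.87 had an adjusted p of 0.0957 (limma), and the wild-type arrays were 0.59 apart. It was called lower in 3 of the 4 fits that left out an array, all but the one without wild-type replicate 1. The groups did not overlap, and the other 5 members of that arm differed by −0.07 to 0.09.

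Taken arm by arm, the negative differences were uneven. Of the 32 arms, 11 held a member that fell, 2 held a member that rose and 20 held no member past the threshold in either direction. More than 1 fall was found on 5 arms, the left arms of chromosomes II and VI and the right arms of III, V and XVI. In 3 of these the called genes were next to each other in the gene order (YBL113C with YBL112C, YFL065C with YFL064C, ARR3 with ARR2). Of the falls on these arms, YBL113C, YBL112C, YFL065C, YFL064C and AAD3 were read on cross-hybridising probe sets. Without such sets, more than 1 fall was left only on the right arms of V and XVI. Arm medians below −0.3 were found on the left arms of II, VI and VII and the right arms of III and XVI, and no arm had a median above 0.3. The highest, 0.26, was on the left arm of IX. All members were negative on 6 arms, and none was on the left arm of IV. Each deletion array was also set against each wild-type array in turn, in 4 pairings. The 5 lowest arms were picked on these same arrays, so the pairings give no separate check. The medians of these arms stayed below −0.2 in each pairing. They ranged from −0.42 to −0.32 on the left arm of II, from −0.59 to −0.41 on the right arm of III and from −0.53 to −0.46 on the left arm of VI. They ranged from −0.65 to −0.21 on the left arm of VII, and from −0.66 to −0.31 on the right arm of XVI. Arrays of the same genotype differed by at most 0.19 in these medians.

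The falls lay at the outermost ranks. All measured genes were counted inward from the end, and genes of the named families kept their places in the count but were then left out. Of the rest, 5 of 20 genes fell at rank 1, 4 of 29 at rank 2, 3 of 31 at rank 3 and 4 of 27 at rank 4. At ranks 5 and 6, 0 of 58 genes fell, with 17 at an unadjusted p under 0.05 in either direction (limma), and at ranks 7 to 12, 0 of 180 fell, with 50 at an unadjusted p under 0.05. Ranks 13 to 18 held 1 fall among 187 genes, ranks 19 to 24 held 1 among 177, and ranks 25 to 30 held 2 among 174. Further in, 46 of 4280 genes fell (1.07%). The median difference was −0.25 at rank 1, and between −0.07 and 0.04 at ranks 2 to 6. Over ranks 1 to 4 it was −0.07, ranging from −0.10 to −0.004 over the pairings of arrays, and over ranks 5 and 6 it was 0.02. These ranks were grouped after their values were seen.

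**Figure D3:**
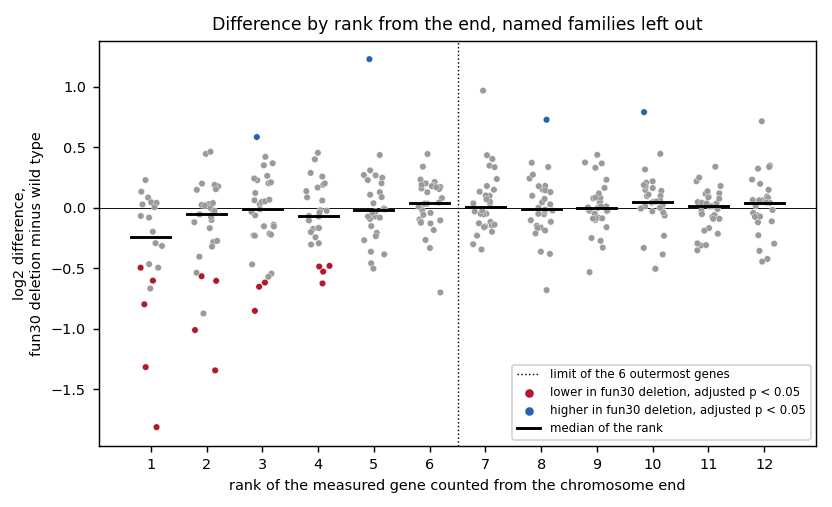
Log2 difference (fun30 deletion minus wild type, vertical axis) of genes by their rank from the chromosome end (horizontal axis, 1 is outermost), with a black bar at each rank's median and genes past the threshold in red (lower) or blue (higher). The 16 falls lie at ranks 1 to 4, and the median is −0.25 at rank 1 and within 0.07 of 0 at every other rank plotted.

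The signal and the probe design also changed with rank. Median signals were 7.58 at rank 1 and 9.17 at rank 6, and 10.1 over ranks 7 to 12. Of the 107 genes at ranks 1 to 4, 29 were read on cross-hybridising probe sets, against 3 of the 58 at ranks 5 and 6. Without such sets, 9 of 78 genes at ranks 1 to 4 fell (11.5%), against 0 of 55 at ranks 5 and 6, where 14 had an unadjusted p under 0.05 (limma). Places were also counted among all protein-coding genes of the arm, including those the arrays did not measure and, as before, those of the families. By these places, 9 of 56 members at places 1 to 4 fell, 7 of 85 at places 5 to 8 and 0 of 24 at places 9 to 13. In this last group 7 genes had an unadjusted p under 0.05, and 7 of the 24 differences were negative. Transcription toward the chromosome end was found for 88 members, 12 of which fell, and transcription away from it for 77, 4 of which fell. Cross-hybridising probe sets read 22 of the 88 and 10 of the 77. The part of dim signal and of orientation in the pattern by rank was not tested.

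The share of members that fell was above that of all tested probe sets under each setting tried, though the counts moved. Without wild-type replicate 1, 8 members fell (4.85%, against 0.418% of all tested probe sets) and 1 rose. ADH7, AAD3, PUG1, YBL113C, YFL064C, VEL1, AYT1, YLR462W and the rise of SOR2 were the calls lost there. Without wild-type replicate 2, 21 members fell (12.7%, against 3.78% of all) and 6 rose. Without fun30 deletion replicate 1, 19 fell (11.5%, against 5.58% of all) and 7 rose, and the call of YBL113C was lost. Without fun30 deletion replicate 2, 20 fell (12.1%, against 1.84% of all) and 2 rose, and ADH7, PUG1 and YLR462W were lost. Of the 18 calls, 9 were kept in all 4 of these fits, the falls of YIR042C, ARR2, ARR3, YER187W, YFL065C, GEX1, AIF1 and YBL112C and the rise of YNR071C. In the fit without wild-type replicate 1, the 8 falls were again at ranks 1 to 4 and 0 at ranks 5 and 6, where 12 genes had an unadjusted p under 0.05 (limma). In the fits without another array, 1 gene of ranks 5 and 6 fell, against 18 to 20 of ranks 1 to 4. Falls further in appeared as well, since at ranks 7 to 12 the fits gave 5 of 180 without fun30 deletion replicate 1, 2 without wild-type replicate 2 and 1 without wild-type replicate 1.

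**Figure D4:**
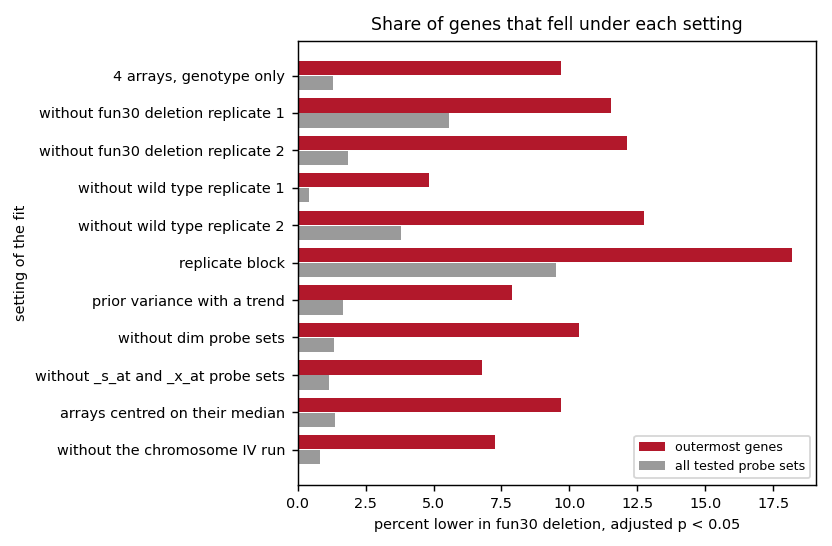
Percent of the outermost genes (red, upper bar of each pair) and of all tested probe sets (grey, lower bar) that were lower in the fun30 deletion at an adjusted p under 0.05, for each setting of the fit. The red bar is longer than the grey one in every setting, at 9.70% against 1.29% with all 4 arrays and genotype alone, at 4.85% against 0.418% without wild-type replicate 1, at 11.5% against 5.58% without fun30 deletion replicate 1 and at 18.2% against 9.51% with the replicate block.

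By function, the genes for sugar use leaned the other way. Among the 12 outermost genes of this list, 2 rose and 0 fell, 11 differences were positive and the median was 0.35, with 9 genes at an unadjusted p under 0.05 (limma). An unadjusted p under 0.05 was found for 40.6% of all members and 22.2% of all tested probe sets. Rises made up 1.21% of all members and 1.36% of all tested probe sets. The list was chosen with earlier results of these data known. It leaves out the member YPR196W, a putative maltose-type activator, which differed by −0.04. SOR2, IMA3, MAL32 and MPH2 of this list were read on cross-hybridising probe sets. SOR2, which resembles sorbitol dehydrogenases and has a near-identical copy, had 9.98 and 9.94 in the deletion, against 9.34 and 9.42 in the wild type, a rise of 0.58 ± 0.07 (SE, adjusted p = 0.0219, limma). The other riser was YNR071C. MAL11, a maltose transporter of the right arm of chromosome VII, had 10.16 and 10.24 in the deletion, against 9.57 and 9.90 in the wild type (0.46, adjusted p = 0.125). The groups of MAL11 did not overlap, but its wild-type arrays were 0.33 apart. MAL31, the maltose transporter of chromosome II, had 11.56 and 11.81 in the deletion, against 11.13 and 11.34 in the wild type (0.45, adjusted p = 0.12). Invertase, encoded by SUC2, had 12.27 and 12.35 in the deletion, against 11.79 and 12.14 in the wild type, a difference of 0.34 that did not pass. The list's median ranged from 0.13 to 0.53 over the 4 pairings of arrays, while wild-type replicate 1 lay 0.14 below wild-type replicate 2 in it and the deletion replicates differed by 0.09.

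Other lists of outermost genes held single calls or none. The list of metal reductases and of iron, fluoride or glutathione transporters had 4 members, of which GEX1 fell and the others were negative without passing. These were the fluoride exporters FEX2 (−0.29) and FEX1 (−0.23) and the ferric reductase FRE2 (−0.14). In the aryl-alcohol dehydrogenase family AAD3 fell, while AAD14 (0.23), AAD4 (0.18) and AAD10 (0.13) were positive and did not pass. Of 5 genes for the uptake and use of sulphur compounds none passed, with 2 at an unadjusted p under 0.05 (limma). The largest difference there was −0.29, of the S-adenosylmethionine permease SAM3. The 3 genes for formate dehydrogenase and decarboxylases did not pass, all with an unadjusted p under 0.05. FDC1, a ferulic acid decarboxylase, had 10.60 and 10.62 in the deletion, against 10.25 and 10.27 in the wild type (0.35, adjusted p = 0.062), and its partner PAD1 differed by 0.19. The flocculin genes, which encode cell wall adhesins, were opposed in sign. FLO1 had 7.27 and 7.67 in the deletion, against 8.20 and 7.65 in the wild type, so its groups overlapped, and FLO10 differed by 0.42 (adjusted p = 0.104). THI13, a thiamine synthesis gene, differed by 0.31, the biotin synthase gene BIO2 by −0.03 and SNO4, an Hsp31-like chaperone gene, by −0.08, and none of them passed.

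HMLALPHA1, the alpha1 gene of the silent cassette on the left arm of chromosome III, was below the background level on all 4 arrays. Its signals were 4.37 and 4.05 in the deletion, against 4.24 and 4.23 in the wild type, so no transcript of this gene was detectable in either genotype at the sensitivity of these arrays. IRC4, on the right arm of chromosome IV, was the third of the largest positive differences that did not pass, with 9.39 and 9.41 in the deletion, against 8.89 and 9.03 in the wild type (0.44, adjusted p = 0.0578).

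Of the factors known to act at chromosome ends, 39 were measured, 1 rose and 0 fell, with 9 at an unadjusted p under 0.05 (limma) and a median difference of −0.04. Over all tested probe sets, 22.2% had an unadjusted p under 0.05 (limma), 1.36% rose and 1.29% fell. The riser was SIR4, a structural subunit of silent chromatin, which had 10.64 and 10.70 in the deletion, against 9.77 and 9.80 in the wild type (0.88 ± 0.06 SE, adjusted p = 0.0069). SIR4 lies in a run of neighbouring genes on chromosome IV that were together higher in the deletion. Its partners SIR2, the histone deacetylase, and SIR3 differed by −0.36 (adjusted p = 0.106) and 0.06 (adjusted p = 0.611). RAP1, which binds telomeric repeats, differed by −0.40 (adjusted p = 0.051), and SAS2, a histone acetyltransferase that limits the spread of silencing, by −0.54 (adjusted p = 0.063). RPD3, a histone deacetylase gene that is itself an outermost gene, differed by −0.03. With the chromosome IV run left out of the fit, 12 members fell and 2 rose, and YBL113C, AAD3, AYT1 and YLR462W were the falls lost.

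In the pool of deletion strains, the loss of an outermost gene went with few departures in the integration arrays. A strain was present for 100 of the 165 members, and 100 strains of 98 of these genes had a value on both arrays. The deposited values are ratios of the 2 channels, with the numerator pool not given in the sources used here, so each strain is given as above or below the array's median on the log2 scale. Each cassette had 1 array, which leaves no replicate check. The median of these strains was 0.03 for the ISU1 cassette and −0.04 for the SOD2 cassette, against −0.009 and 0.01 for all 4235 strains. The strains spread less, with SDs of 0.34 and 0.35, against 0.48 and 0.53 for all strains.

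Of the 100 strains, 1 lay more than 2-fold above the median on both arrays, against 1.91% of all strains, and 0 lay more than 2-fold below on both, against 0.638%. The count above takes both ratios to run the same way. With the SOD2 array turned, a setting chosen after seeing the data, 0 of the 100 strains and 1 of all 4235 lay past 2-fold on both, and as deposited the arrays correlated with r = 0.53 over the 4235 strains. With 1 array a cassette these counts have no test, and shares near those of all strains show nothing particular to the members. The strain above was that lacking MSC1, a gene named for its part in recombination between sister chromatids in meiosis, at 1.07 for ISU1 and 1.19 for SOD2. The ISU1 value of MSC1 came from 1 of the strain's 2 barcode features, and among the 89 strains with both features on both arrays none was past 2-fold on both. RMD6 followed at 0.83 and 1.03. The pool held 2 strains named for VAC17, the vacuole adaptor for the myosin motor, at 1.11 and 0.92 for one and 0.21 and 0.77 for the other. The features of the second VAC17 strain lay at −0.27 and 0.70 on the ISU1 array, so they were as far apart as the strains themselves, while those of the first lay at 1.10 and 1.13. MAL11 lay at 0.82 and 0.19.

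At the lower side the strain lacking HYR1, a thiol peroxidase, lay at −1.03 for ISU1, from 1 feature, and at −0.75 for SOD2. ADH6, an alcohol dehydrogenase that uses NADPH, followed at −0.52 and −0.44. The strains of YLR456W, SUC2 and YJL213W had means over both arrays between −0.34 and −0.29. In comparison, the strain lacking FUN30 lay at −1.43 and −1.20, from 1 feature on each array. Of the 18 outermost genes that rose or fell in the fun30 deletion, 11 had a strain on both arrays, and none was past 1.5-fold on both. Their values ran from −0.33 to 0.45 for ISU1 and from −0.37 to 0.42 for SOD2. The strain lacking ARR2 lay at 0.16 and 0.42, ARR3 at 0.17 and 0.03, YIR042C at −0.01 and −0.17 and YNR071C at −0.09 and −0.35.

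**Figure D5:**
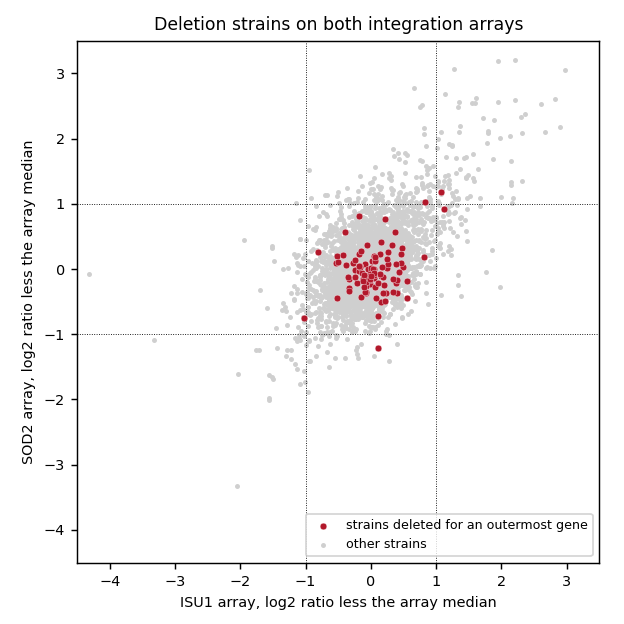
Log2 ratio less the array median of each deletion strain on the ISU1 array (horizontal axis) and the SOD2 array (vertical axis), with strains lacking an outermost gene in red and the other strains in grey, and dotted lines at 2-fold. The red points crowd near the centre, and 1 of the 100, the strain lacking MSC1 at 1.07 and 1.19, lies past 2-fold on both arrays.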

How the data were processed

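The expression table holds log2 signals, made by the authors with RMA, which equalises the distributions of the arrays, per the submitters' processing notes. These also name limma, with no versions in the sources used here. Of 10928 probe sets, 5498 match exactly 1 gene in RefSeq's S. cerevisiae table (R64) and were tested. Neither array table names a build, so that table served for names and gene order alone. A gene with several probe sets was represented by the brightest. Genotypes were compared with limma 3.58.1 in R 4.3.3 (lmFit and eBayes, 2 arrays against 2, 2-sided, Benjamini-Hochberg over 5498 probe sets, threshold 0.05), tested on simulated data. The fit had 2 residual degrees of freedom and a prior of 3.23, and the number of arrays limits the precision.

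Integration values are linear ratios of 2 channels, as deposited by the authors, of unstated scaling and direction. They were log2-transformed, centred on each array's median and averaged over the 2 barcode features of a strain, without a test. Plasmid barcodes carried Cy5 on the ISU1 array and Cy3 on the SOD2 array, per the labels.

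The members and lists were chosen with earlier results of these data known. Named genes were all members past the threshold, the 3 largest differences of each sign that did not pass, up to 4 genes per list, and arms with a median beyond 0.3 from 0. Named strains were those past 2-fold on both arrays and up to 5 at each end with equal signs. Single members outside that rule were named to complete an arm or list or for their strain. Alternatives left out each array, added a replicate block or a variance trend, dropped dim or cross-hybridising probe sets or the chromosome IV run, centred the arrays, and changed the choice of members. Python 3.11.15 with pandas 2.3.3 was used for the rest.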

Additional observations from a re-analysis of the deposited data

How the results depend on the processing

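The fits that left out 1 array gave 8 to 21 falls and 1 to 7 rises among the 165 outermost genes, and 23 to 307 falls and 52 to 194 rises among all tested probe sets, with the lone array of a genotype assumed to vary like the other pair. Without wild-type replicate 1 these were 8 and 1, and 23 and 52. The replicate numbers pair nothing in the labels, and replicate 1 minus replicate 2 correlated with r = 0.26 between the genotypes over 5498 probe sets. With the replicate block, 30 members fell and 14 rose, and 523 probe sets fell and 271 rose over all. These members included IRC7, YFL068W, RDS1, YCR108C, OPT2, YPS5 and MIX23, not called with 4 arrays and genotype alone, and with the block 4 of 58 genes at ranks 5 and 6 and 15 of 180 at ranks 7 to 12 fell. Without _s_at and _x_at probe sets, 9 members fell and 1 rose among 133. Without the chromosome IV run, 45 probe sets fell and 23 rose. With a variance trend, ADH7, VEL1 and YLR462W were lost and 13 members fell. Taking the 3 outermost genes of each arm gave 12 falls and 1 rise among 80 and a median of −0.0653, taking 10 gave 16 falls and 4 rises among 287, and keeping the families gave 20 falls among 192 and a median of −0.0649. Among the strains, a 1.5-fold limit gave 3 above and 1 below on both arrays, strains with both features gave 0 above, ratios without centring gave 2, and the SOD2 array turned gave 0. The cause of these movements was not tested beyond the fewer genes or arrays each setting holds. No gene past the threshold changed sign under the alternatives run. Leaving out an array could not change it, since in each of these genes both deletion arrays lay on the same side of both wild-type arrays. Medians near 0 did change sign. That of ranks 5 and 6 was −0.003 without wild-type replicate 2 and −0.002 without dim probe sets. Signals near the background level limit what can be read of the 20 dim members.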
